A study of Petromyzon marinus with 2 samples.

Results

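Mitochondrial ribosomal protein genes were followed across the cell classes of the adult sea lamprey (Petromyzon marinus) retina. They were chosen by name, as every feature called MRPL or MRPS with a number, and by detection, with at least 1 unique molecular identifier (UMI, a tag that marks 1 captured transcript) in at least 100 cell barcodes. Of 53 such names among 24979 features, 52 passed, 33 of the MRPL series and 19 of the MRPS series. MRPS6 lay just inside the limit with 108 barcodes, followed by MRPL46 with 1581, and MRPL34, with 55 barcodes, was the only name left outside. The rule itself uses no difference between classes.

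The data are 2 droplet-based single-cell libraries, replicate 1 and replicate 2, each of dissociated retina of adult animals, with no treatment and no genetic change. How many animals went into each library is not given in the sources used here. Cells were placed in 6 classes by UMIs of marker genes, none of which is a mitochondrial ribosomal protein gene, and the 52 genes were compared between each class and the mean of the other 5. The tables give 1 count per gene and cell from the 3′ ends of transcripts, not divided by transcript length, so levels are compared between classes for 1 gene and not between genes.

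Mitochondria keep a ribosome of their own, which translates the few messenger RNAs of the mitochondrial genome, nearly all of them for core subunits of the respiratory chain and ATP synthase. Its protein subunits are encoded in the nucleus, made on cytosolic ribosomes and imported: MRPS names mostly mark the small subunit, which decodes the messenger RNA, and MRPL names the large subunit, which joins amino acids. Some have a counterpart in the bacterial ribosome and others were added in the mitochondrial lineage. The retina is among the tissues with the highest demand for mitochondrial ATP.

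A total of 28839 barcodes passed the filters on UMIs and genes, and 20566 of them entered a class. The 2 libraries held 87882951 and 117426390 UMIs in all deposited barcodes and shared 83 barcode sequences. Each class is called by its gate genes, of which a cell needed at least 2 UMIs: BEGAIN with LHX1 or SALL3 (genes of horizontal cells, the inhibitory neurons at the photoreceptor synapse), SLC17A6 (the vesicular glutamate transporter), GLUL with AQP8 (genes of Müller glia), SLC32A1 (the vesicular transporter of GABA and glycine), GAD1 (a GABA-making enzyme) and CHAT with SLC5A7 (acetylcholine synthesis and choline uptake, genes of starburst amacrine cells). Markers outside the gates were at hand for some: HES1, a glial gene, stood at 42.0 and 50.3 counts per 1000000 UMIs (CPM) in GLUL/AQP8 cells, against at most 4.46 in any other class sum. BARHL1 did not set the BEGAIN class as a whole apart, with 287.7 and 282.6 CPM there, against 322.8 and 333.2 in CHAT/SLC5A7 cells. Within the BEGAIN class it stood at 507.5 and 547.7 CPM in cells with LHX1 and at 52.1 and 19.7 CPM in cells with SALL3 alone. SLC17A6 cells also held transcripts of photoreceptors, with CNGB1 at 64.5 and 79.7 CPM and RCVRN at 32.6 and 65.9 CPM, and they are called here by their gate gene. GAD1 cells had SLC32A1 at 11.4 and 13.2 CPM, against 561.4 and 570.2 in SLC32A1 cells, which come earlier in the gate order. Of genes listed for ganglion cells, RBPMS was highest in GAD1 cells in each library (28.2 and 18.5 CPM). POU4F2 (0.24 and 0.35) and ISL1 (0.92 and 1.23) were low there. Which neurons the GAD1 class holds was not tested.

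Summed over the 52 genes, mitochondrial ribosomal protein transcripts took the largest share in BEGAIN/LHX1-SALL3 cells. They made up 2426 CPM of that class in replicate 1 (133 cells) and 2777 CPM in replicate 2 (241 cells). SLC17A6 cells followed with 1863 and 2016 CPM (214 and 410 cells), and GLUL/AQP8 cells with 1836 and 1857 CPM (275 and 1123 cells). The classes gated by inhibitory and cholinergic genes were lowest, with 1606 and 1669 CPM in SLC32A1 cells (2369 and 2664 cells), 1563 and 1682 CPM in GAD1 cells (4785 and 6532 cells), and 1521 and 1580 CPM in CHAT/SLC5A7 cells (872 and 948 cells). The means were 2601 ± 248 CPM in BEGAIN/LHX1-SALL3 cells, 1940 ± 108 in SLC17A6 cells, 1847 ± 14.6 in GLUL/AQP8 cells, 1638 ± 44.4 in SLC32A1 cells, 1622 ± 84.4 in GAD1 cells and 1551 ± 42.1 in CHAT/SLC5A7 cells (SD, n = 2 libraries each). The BEGAIN/LHX1-SALL3 values did not overlap those of any other class. Of the neighbours in this order, SLC17A6 and GLUL/AQP8 cells differed in the mean by less than the SD of SLC17A6 cells, and GAD1 values overlapped both those of SLC32A1 and those of CHAT/SLC5A7 cells. Replicate 2 was higher than replicate 1 in all 6 classes.

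**Figure D1:**
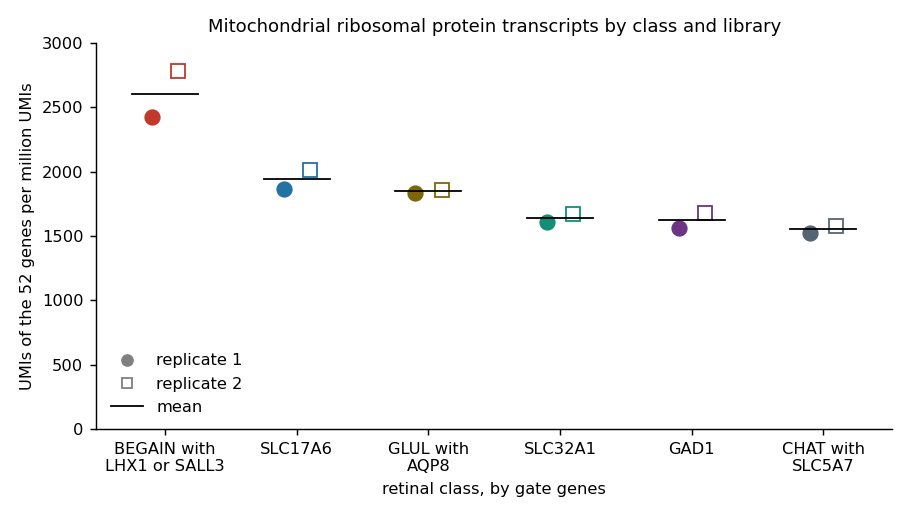
UMIs of the 52 mitochondrial ribosomal protein genes per 1000000 UMIs of the class (y axis, from 0) in each retinal class (x axis), with replicate 1 as filled circles, replicate 2 as open squares and their mean as a line. BEGAIN/LHX1-SALL3 cells stand highest at 2426 and 2777, and the 10 other sums lie between 1521 and 2016.

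In BEGAIN/LHX1-SALL3 cells, 38 of the 52 genes were higher than the mean of the other 5 classes, 1 was lower and 13 did not pass the test, which was edgeR's quasi-likelihood test on UMIs summed per class and library, called at a Benjamini-Hochberg adjusted p under 0.05. Among all 15621 genes tested, 26.3% were higher and 26% lower in the same comparison. The median log2 fold change was 0.60 over the 52 genes and -0.06 over all genes. With each library taken alone, 42 of the 52 were above 0 in both and 4 below 0 in both, counts not made over all genes. At least 2-fold higher were 11 of the 52, against 11.6% of all genes. Both name series shared the direction: 15 of 19 MRPS and 23 of 33 MRPL genes were higher. The count rests on the most deeply sequenced cells of the class (at least 20000 UMIs): among cells of 4000 to 16000 UMIs it was 2 higher and 11 lower.

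MRPS36 differed most. It stood at 231.0 and 282.2 CPM in BEGAIN/LHX1-SALL3 cells, against 38.1 to 75.9 CPM in the 10 sums of other classes, a log2 fold change of 2.35 (SE 0.06, adjusted p 3.2e-09) or 5.11-fold. The human MRPS36 protein was first listed as a small subunit protein and has since been assigned to the 2-oxoglutarate dehydrogenase complex of the citric acid cycle, where it is also called KGD4. Its transcripts were 9.52% and 10.2% of all UMIs of the 52 genes in BEGAIN/LHX1-SALL3 cells, against 2.37% to 3.82% in the other sums. With MRPS36 left out, the other 51 genes still summed to 2195 and 2494 CPM in BEGAIN/LHX1-SALL3 cells, against 1476 to 1940 CPM elsewhere.

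MRPL42, a large subunit protein without a bacterial counterpart, stood at 59.5 and 72.9 CPM in BEGAIN/LHX1-SALL3 cells, against 17.1 to 32.3 CPM in other sums (log2 fold change 1.82, SE 0.11, adjusted p 4.8e-07). MRPL32, the counterpart of bacterial L32, is cut by the m-AAA protease before it joins the ribosome in yeast and mouse. It stood at 33.9 and 50.1 CPM, against 12.7 to 29.9 CPM (log2 fold change 1.37, SE 0.10, adjusted p 1.9e-06). For both genes the 2 BEGAIN/LHX1-SALL3 sums lay above all others. MRPL14 was the only gene of the 52 that passed the test as lower, at 29.1 and 31.3 CPM, against 36.3 to 51.9 CPM (log2 fold change -0.31, SE 0.10, adjusted p 0.02). Its counterpart, bacterial L14, sits at the interface of the subunits. The call was lost without the library as a block (-0.31, adjusted p 0.055), with cells of more than 1 gate left out, with a gate of 1 UMI, with thinned cells and in cells of 4000 to 16000 UMIs, and in cells of at least 20000 UMIs the value was 0.0072. The level of 34 of the 52 genes was highest in BEGAIN/LHX1-SALL3 cells, whereas 7 were highest in SLC17A6, 5 in CHAT/SLC5A7, 4 in GLUL/AQP8, 2 in SLC32A1 and 0 in GAD1 cells. The same count was not made over all genes, so it has no background here.

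**Figure D2:**
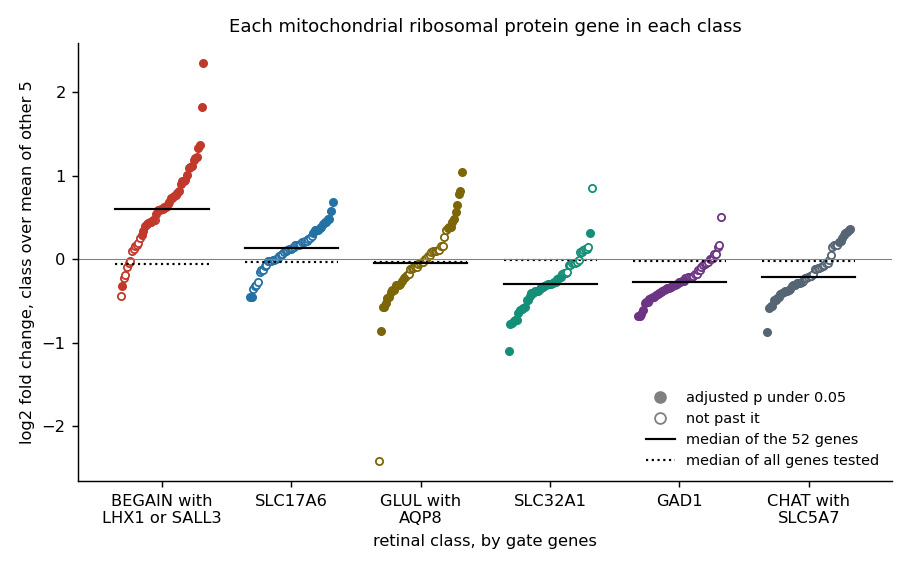
Log2 fold change (y axis) of each of the 52 genes in a class over the mean of the other 5 (x axis, genes sorted within each class), filled where the edgeR adjusted p is under 0.05, with solid lines at the median of the 52 genes and dotted lines at the median of all genes tested. The solid line is at 0.60 in BEGAIN/LHX1-SALL3 cells and lies between -0.30 and 0.13 in the other classes, and the open point at -2.42 is MRPS6, which had 107 UMIs in all classes together.

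The high level was found only in part of the BEGAIN/LHX1-SALL3 cells. Cells of at least 20000 UMIs (54 and 117 cells) had 2733 and 3066 CPM of the 52 genes. Cells of 10000 to 20000 UMIs (18 and 47) had 1661 and 1812 CPM, and cells under 10000 UMIs (61 and 77) had 1126 and 1444 CPM, below the means of all the other classes. MRPS36 followed the same order, with 272.8 and 325.9 CPM in the deepest group, 138.4 and 151.3 CPM in the middle one and 43.9 and 57.3 CPM in the shallowest. BEGAIN, a gate gene, stood at 1783 and 2137 CPM in cells of at least 20000 UMIs and 5494 and 5984 CPM in cells under 10000. The gate asks for at least 2 BEGAIN UMIs at any depth, a larger share of a shallow cell than of a deep one. Whether the gate has any part in the difference in BEGAIN level between depths was not tested. In the other classes the summed level of the 52 genes moved less with depth: in GAD1 cells, for example, it was 1633 and 1950 CPM at 20000 UMIs or more and 1484 and 1595 CPM at 5000 to 10000 UMIs.

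**Figure D3:**
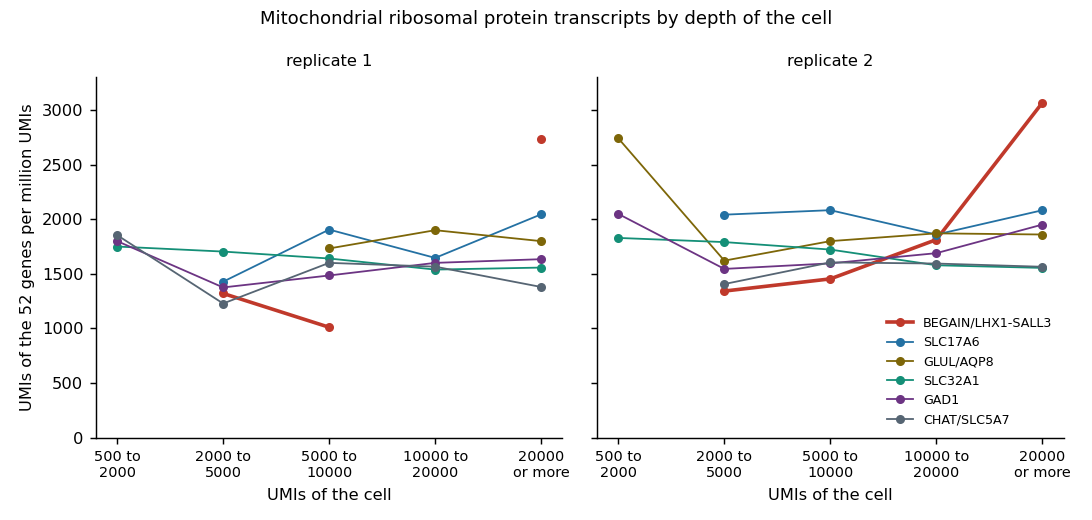
UMIs of the 52 genes per 1000000 UMIs (y axis) in cells grouped by their UMI total (x axis, unequal steps), 1 line per class and 1 panel per library, for groups of at least 20 cells. The BEGAIN/LHX1-SALL3 line climbs to 2733 in replicate 1 and 3066 in replicate 2 at 20000 UMIs or more, and the 10000 to 20000 group of replicate 1 is not drawn because it held 18 cells.

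The class comparison was therefore repeated within ranges of depth, a choice made after seeing the data. Among cells of 4000 to 16000 UMIs, 2 of 51 genes tested were higher in BEGAIN/LHX1-SALL3 cells and 11 were lower, with a median log2 fold change of -0.42 (all genes: -0.12, with 13.6% higher and 15.3% lower). MRPL42 and MRPL32 changed sign there, to -0.45 and -0.24. Among cells of at least 20000 UMIs, 43 of 51 were higher and 0 lower (0 also at an unadjusted p under 0.05 in edgeR), with a median of 0.87 (all genes: 0.04, with 31% higher and 25.2% lower). That range has no upper limit, so depth within it was not matched between the classes. With every cell thinned to 1000 UMIs, so that each counts alike, 4 of 51 were higher and 0 lower (0 at an unadjusted p under 0.05), with a median of 0.21 (all genes: -0.08, with 10.2% called in each direction). The 52 genes then summed to 1917 and 2203 CPM in BEGAIN/LHX1-SALL3 cells, against 1471 to 1932 CPM in the others. What sets the deep cells apart from the shallow ones was not tested.

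The deep cells included both kinds of gated cell. Cells with LHX1 had 2833 and 2828 CPM of the 52 genes at 20000 UMIs or more, and cells with SALL3 alone had 2611 and 3277 CPM. Below 20000 UMIs the values were 1552 and 1736 CPM with LHX1 and 1267 and 1581 CPM with SALL3 alone. Of all BEGAIN/LHX1-SALL3 cells, 60.9% and 67.6% also passed another gate, mostly that of GAD1, as did 72.0% and 85.4% of CHAT/SLC5A7, 55.3% and 42.0% of GLUL/AQP8 and 31.1% and 33.7% of SLC32A1 cells. The level was as high without those cells, but this could be seen only for cells with SALL3 alone. Deep cells that passed no other gate (12 and 29 cells, with GAD1 at 12.6 and 10.3 CPM) had 3010 and 3333 CPM of the 52 genes. LHX1 stood at 0 CPM in them in both libraries. Deep cells that passed another gate (42 and 88 cells) had 2661 and 2971 CPM. Of the cells with LHX1, 100% and 99.2% passed another gate, so nearly none of them could be checked in this way. With all cells of more than 1 gate left out of every class, 29 of 51 genes tested were higher in BEGAIN/LHX1-SALL3 cells and 0 lower (2 at an unadjusted p under 0.05). Among all genes 21.6% were higher and 20.8% lower, and all 29 were among the 38. This fit too left out nearly all cells with LHX1.

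In SLC17A6 cells, 12 of the 52 genes were higher (23.1%) and 2 lower (3.85%) than the mean of the other classes, with a median log2 fold change of 0.13. Among all genes 19.5% were higher and 17.6% lower, so the share of higher genes was close to that background. All 12 belonged to the 28 genes with a bacterial counterpart, of which 1 was lower. Of the 24 without a counterpart, 0 were higher (1 at an unadjusted p under 0.05 and 0 with DESeq2) and 1 was lower. The median was 0.25 in the 28 and 0.01 in the 24. This split was not put to a test, and it divides a count that lies near the background. The count of 12 became 21 (19.5% of all genes) with BEGAIN/LHX1-SALL3 cells left out of the fit, an alternative added after seeing the data. It became 6 of 51 (20.3%) with cells of more than 1 gate left out and 2 of 51 (11.1%) with cells thinned to 1000 UMIs, both below the share of all genes. MRPL33, the counterpart of bacterial L33, stood at 29.6 and 34.2 CPM in SLC17A6 cells, against 12.1 to 30.3 CPM in other sums (log2 fold change 0.69, SE 0.10, adjusted p 0.00042). One sum of BEGAIN/LHX1-SALL3 cells overlapped it. MRPL9 stood at 41.2 and 37.6 CPM in SLC17A6 cells, against 18.5 to 41.8 CPM (log2 fold change 0.58, SE 0.10, adjusted p 0.001), and MRPS10 at 29.6 and 29.5 CPM, against 15.0 to 40.8 CPM (log2 fold change 0.48, SE 0.13, adjusted p 0.016). The overlap was with GLUL/AQP8 cells for MRPL9 and with GLUL/AQP8 and BEGAIN/LHX1-SALL3 cells for MRPS10. The genes that were lower were MRPS25, at 36 and 41.2 CPM, against 33.2 to 97.2 CPM (log2 fold change -0.46, SE 0.12, adjusted p 0.012), and MRPS21, the counterpart of bacterial S21, at 47.2 and 42.1 CPM, against 45 to 108.1 CPM (log2 fold change -0.45, SE 0.11, adjusted p 0.007).

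In GLUL/AQP8 cells, gated by genes of Müller glia, 10 of the 52 genes were higher (19.2%) and 14 lower (26.9%), close to the 27.5% higher and 24.2% lower among all genes, and the median log2 fold change was -0.04, against -0.03 over all genes. The counts turned to 20 higher and 10 lower with BEGAIN/LHX1-SALL3 cells left out (29.6% and 25.8% of all genes), and to 19 and 4 of the genes tested among cells of 4000 to 16000 UMIs (24.5% and 19.3%). Without the library as a block, 7 were lower (17% of all genes). Highest was MRPL43, a large subunit protein without a bacterial counterpart, at 136.1 and 119.7 CPM in GLUL/AQP8 cells, against 37.4 to 140.9 CPM in other sums (log2 fold change 1.04, SE 0.09, adjusted p 7.7e-06). Only BEGAIN/LHX1-SALL3 cells reached similar values, and the 8 remaining sums ended at 74.8 CPM. MRPL57, also particular to the mitochondrial ribosome, stood at 112.6 and 91.1 CPM, against 48.2 to 81.8 CPM, with no overlap (log2 fold change 0.82, SE 0.09, adjusted p 4.1e-05). MRPS25, a small subunit protein, stood at 79.8 and 72.9 CPM, against 33.2 to 97.2 CPM (log2 fold change 0.78, SE 0.10, adjusted p 7.8e-05).

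Of the genes that passed the test, MRPL33 was the lowest by fold change in GLUL/AQP8 cells, at 12.1 and 12.9 CPM, against 18.3 to 34.2 CPM in the other sums, without overlap (log2 fold change -0.86, SE 0.11, adjusted p 6.9e-05). It is the gene that was highest in SLC17A6 cells. MRPS26 stood at 25.6 and 28.2 CPM in GLUL/AQP8 cells, against 31.5 to 49.5 CPM (log2 fold change -0.57, SE 0.08, adjusted p 0.00021), and MRPL38 at 7.19 and 5.88 CPM, against 5.44 to 13.0 CPM (log2 fold change -0.57, SE 0.13, adjusted p 0.0031). Only BEGAIN/LHX1-SALL3 cells had MRPL38 as low.

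**Figure D4:**
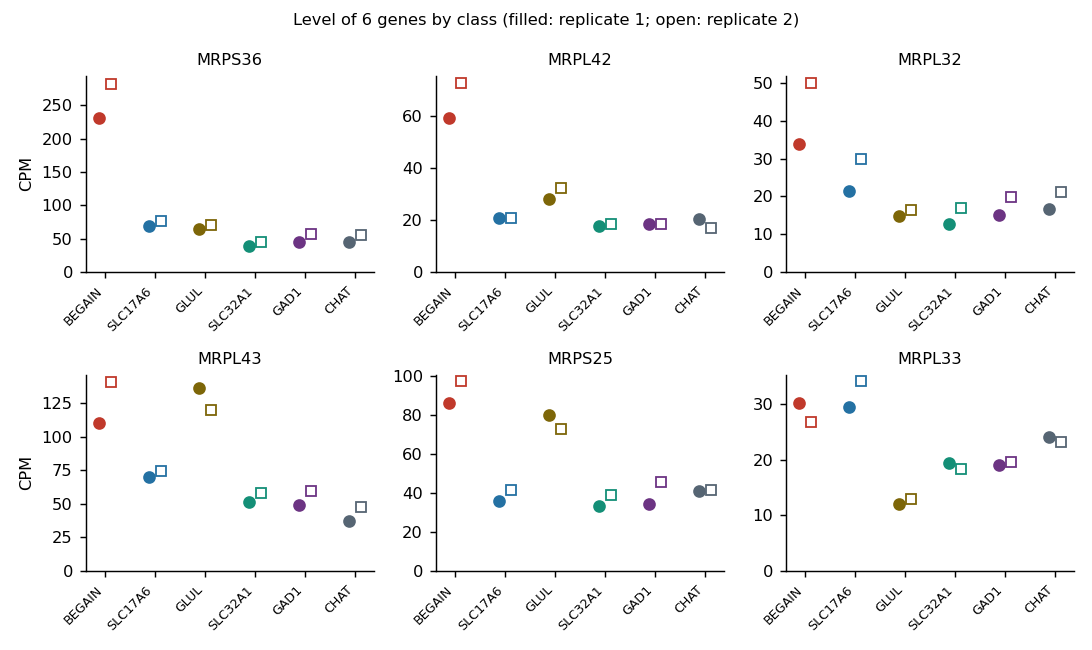
CPM (y axes, from 0) of 6 of the genes described here in each class (x axis, named by the first gate gene), with replicate 1 filled and replicate 2 open. MRPS36, MRPL42 and MRPL32 are highest in BEGAIN/LHX1-SALL3 cells, MRPL43 and MRPS25 are high in BEGAIN/LHX1-SALL3 and GLUL/AQP8 cells, and MRPL33 is lowest in GLUL/AQP8 cells at 12.1 and 12.9.

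Among the cells gated by inhibitory and cholinergic genes, the group leaned to lower values. In SLC32A1 cells, 1 of the 52 genes was higher and 27 lower, against 21.3% higher and 22.5% lower among all genes, with a median log2 fold change of -0.30. In GAD1 cells 0 were higher and 25 lower, against 16.7% higher and 17.8% lower, with a median of -0.27. At an unadjusted p under 0.05 the number higher in GAD1 cells was also 0, and with DESeq2 it was 0. In CHAT/SLC5A7 cells 5 were higher and 19 lower, against 20.6% in each direction, with a median of -0.21. BEGAIN/LHX1-SALL3 cells are part of the mean that each of these classes was set against. With those cells left out of the fit, the lower genes numbered 15 in SLC32A1 cells (19.7% of all genes), 11 in GAD1 cells (14.6%) and 9 in CHAT/SLC5A7 cells (20.3%), and the higher genes 0, 0 and 6 (4 in SLC32A1 and 0 in GAD1 cells at an unadjusted p under 0.05). Among cells of 4000 to 16000 UMIs, the lower genes numbered 2 in SLC32A1 (11.3% of all genes), 1 in GAD1 (7.24%) and 1 in CHAT/SLC5A7 cells (13.7%), with medians of -0.09, -0.07 and 0.09 over the genes tested. Without the library as a block, 11 were lower in GAD1 and 11 in CHAT/SLC5A7 cells, where the shares of all genes were 8.21% and 13.8%.

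By fold change MRPS36 was the lowest of the 52 in 2 of these classes. It stood at 38.1 and 44.5 CPM in SLC32A1 cells, against 44.8 to 282.2 CPM in the other sums (log2 fold change -1.10, SE 0.07, adjusted p 3.5e-06), the only difference of at least 2-fold among the genes that were lower in any class (6.8% of all genes were lower by as much in SLC32A1 cells). In GAD1 cells it stood at 45.5 and 57.5 CPM, against 38.1 to 282.2 CPM (log2 fold change -0.68, SE 0.07, adjusted p 7.2e-05). Both fold changes are against a mean that holds the BEGAIN/LHX1-SALL3 cells, where MRPS36 was highest. With that class set aside, the sums compared with SLC32A1 cells lay at 44.8 to 75.9 CPM. Those compared with GAD1 cells lay at 38.1 to 75.9 CPM, a range that holds both GAD1 values. MRPS11 and MRPS10, with counterparts in bacterial S11 and S10, followed in SLC32A1 cells. MRPS11 stood at 20.9 and 20.4 CPM, against 22.1 to 64.5 CPM, without overlap (log2 fold change -0.77, SE 0.10, adjusted p 0.00017). MRPS10 stood at 15.4 and 15.5 CPM, against 15.0 to 40.8 CPM (log2 fold change -0.77, SE 0.12, adjusted p 0.00054). In GAD1 cells MRPS10 stood at 15.0 and 17.0 CPM (log2 fold change -0.67, SE 0.11, adjusted p 0.0012) and MRPL42 at 18.5 CPM in each library, against 17.1 to 72.9 CPM elsewhere (log2 fold change -0.65, SE 0.11, adjusted p 0.0014). MRPL38 was the 1 gene higher in SLC32A1 cells, at 13.0 and 11.4 CPM, against 5.44 to 12.2 CPM (log2 fold change 0.31, SE 0.10, adjusted p 0.027), and its values overlapped those of GAD1 and SLC17A6 cells.

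CHAT/SLC5A7 cells had the lowest MRPL43, at 37.4 and 47.7 CPM, against 49.4 to 140.9 CPM, with no overlap (log2 fold change -0.87, SE 0.11, adjusted p 0.00013). MRPL41, another large subunit protein without a bacterial counterpart, stood at 28.0 and 28.6 CPM, against 32.3 to 74.6 CPM (log2 fold change -0.58, SE 0.11, adjusted p 0.0022). MRPL9 stood at 20.7 and 18.5 CPM, against 20.3 to 41.8 CPM (log2 fold change -0.56, SE 0.10, adjusted p 0.001). Higher in the same cells were MRPL47, the counterpart of bacterial L29, at 26.3 and 29.0 CPM, against 17.2 to 32.3 CPM (log2 fold change 0.35, SE 0.11, adjusted p 0.026), MRPS26, at 41.8 and 48.2 CPM, against 25.6 to 49.5 CPM (log2 fold change 0.32, SE 0.07, adjusted p 0.0057), and MRPL54, at 27.7 and 31.8 CPM, against 19.8 to 28.5 CPM (log2 fold change 0.32, SE 0.10, adjusted p 0.025). These 3 differences were small, and the values of each overlapped those of other classes.

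**Figure D5:**
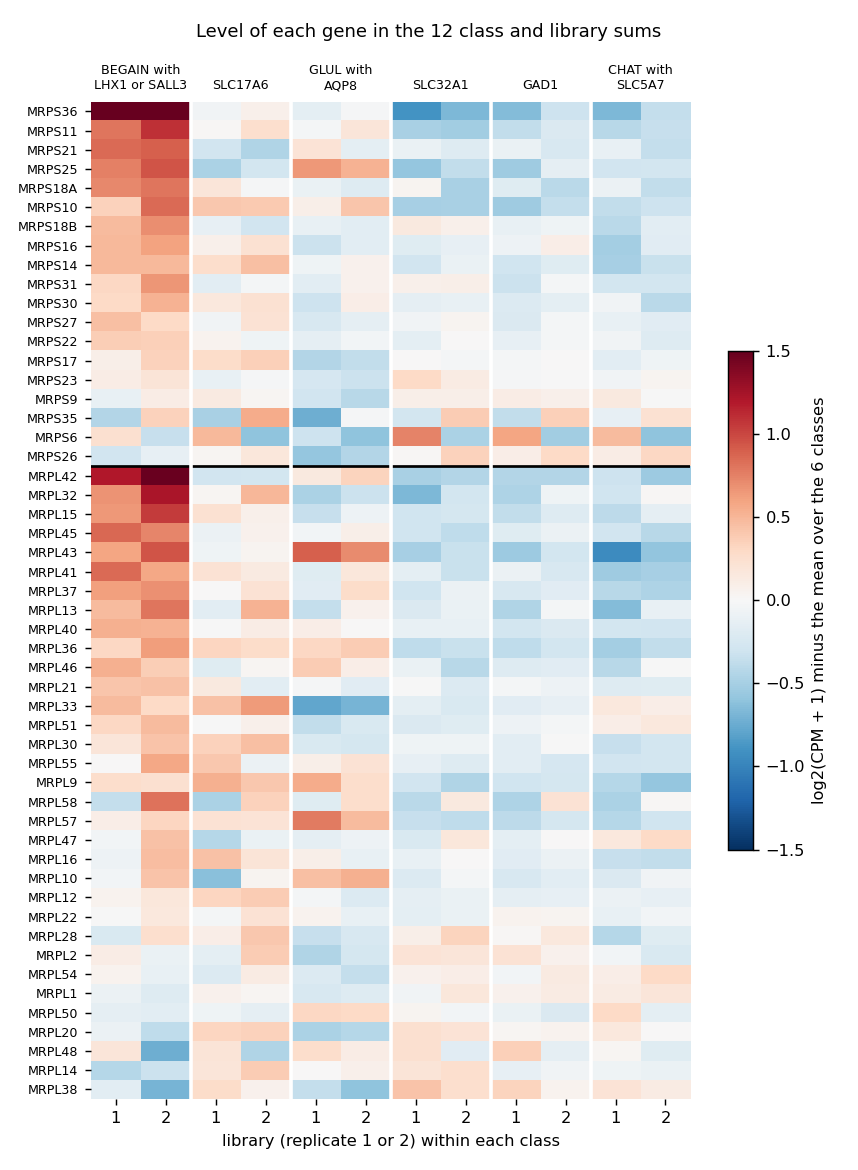
Level of each of the 52 genes in the 12 sums of class and library, as log2(CPM + 1) minus the gene's mean over the 6 classes (colour, cut off at 1.5 in both directions), with MRPS genes above the black line and MRPL genes under it, each sorted by the BEGAIN/LHX1-SALL3 level. Red fills most of the BEGAIN/LHX1-SALL3 columns, and 34 of the 52 genes have their highest level there, a count not made over all genes.

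Of the 52 genes, 50 passed the test in at least 1 class, and MRPL2 and MRPS6 in none. This count was not made over all genes, so it has no background here. The SD of the log2 level over the 6 classes had a median of 0.32 over the 52 genes and 0.51 over all genes tested. Genes of any level are among the latter, and no set matched for level was compared. MRPL1, the counterpart of the protein of the bacterial L1 stalk, varied least, at 14.6 to 19.9 CPM over the 12 sums, followed by MRPL22 at 31.5 to 40.6 CPM and MRPL48 at 5.25 to 12.2 CPM. MRPL43, MRPS36 and MRPS27 gave the most UMIs over all classes, and MRPL20, MRPL46 and MRPS6 the fewest. MRPS27, a pentatricopeptide repeat protein of the small subunit, stood at 84.2 and 75.6 CPM in BEGAIN/LHX1-SALL3 cells, against 51.9 to 71.8 CPM elsewhere. MRPL20 stood at 8.78 and 7 CPM in BEGAIN/LHX1-SALL3 cells, against 6.51 to 12.2 CPM, and MRPL46 at 13.6 and 12.1 CPM, against 6.53 to 12.1 CPM.

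The ratio of the MRPS to the MRPL name series, which only mostly match the subunits, differed between classes. UMIs of MRPS genes per UMI of MRPL genes came to 0.808 and 0.802 in BEGAIN/LHX1-SALL3 cells, against 0.554 to 0.666 in the other sums. Without MRPS36 the ratio was 0.636 and 0.619 in BEGAIN/LHX1-SALL3 cells, against 0.499 to 0.617. GLUL/AQP8 cells were lowest in both forms, at 0.499 and 0.525 without MRPS36. These ratios are given as values with no test, and they describe the name series, not the balance of the subunits.

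The pattern of MRPS36, the most variable of the 52, was set beside that of every named gene over the 12 sums. The highest Pearson correlations of log2 CPM were with ATP5F1D (0.995), COX5B (0.991), NDUFA1 (0.990), NEDD8 (0.988) and TOMM6 (0.988), of which ATP5F1D, COX5B and NDUFA1 encode subunits of the ATP synthase, complex IV and complex I. Among the 52, the closest were MRPS27 (0.891), MRPL43 (0.775) and MRPL10 (0.531). The 12 sums come from 2 libraries and share their depth, so these values only describe likeness.

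Other genes of mitochondrial translation and respiration give the setting of these levels. Nuclear-encoded genes of oxidative phosphorylation were higher in the same class. They were listed by name, and beside subunits of the complexes they include assembly factors of complex I (NDUFAF1, NDUFAF2, NDUFAF5, NDUFAF6 and NDUFAF7). In BEGAIN/LHX1-SALL3 cells 51 of 55 were higher and 0 lower, with a median log2 fold change of 1.2 (all genes: 26.3% higher and 26% lower). They summed to 18603 and 22758 CPM there, against 6811 to 13389 CPM in the other sums, and in those cells they too depended on depth, with 22100 and 26179 CPM at 20000 UMIs or more and 3972 and 6863 CPM under 10000. For every 100 UMIs of these listed genes there were 13.0 and 12.2 UMIs of the 52 genes in BEGAIN/LHX1-SALL3 cells, against 15.1 to 23.1 elsewhere. In SLC17A6 cells 31 of 55 were higher and 2 lower, in GLUL/AQP8 cells 8 and 16, in CHAT/SLC5A7 cells 1 and 38, in SLC32A1 cells 1 and 49, and in GAD1 cells 0 and 45, beside the shares of all genes given for each class.

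Cytosolic ribosomal proteins had another order. In GLUL/AQP8 cells 62 of 63 were higher and 0 lower, with a median of 0.69, while the 52 mitochondrial ones had a median of -0.04 there. The shares of all genes in GLUL/AQP8 cells were 27.5% and 24.2%. In BEGAIN/LHX1-SALL3 cells 60 of 63 cytosolic genes were higher and 0 lower (26.3% and 26% of all genes). In SLC17A6 cells 3 were higher and 1 lower (19.5% and 17.6%). The lower counts were 58 in CHAT/SLC5A7 (20.6%), 60 in SLC32A1 (22.5%) and 61 in GAD1 cells (17.8%), with 0 higher in each. For every 100 UMIs of cytosolic ribosomal proteins there were 3.73 and 4.02 UMIs of the 52 genes in GLUL/AQP8 cells, against 5.53 to 6.64 in the other sums.

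Of 3 tested subunits of the mitochondrial ribosome with other names, CHCHD1 and AURKAIP1, both of the small subunit, were higher in BEGAIN/LHX1-SALL3 cells, with log2 fold changes of 1.26 (edgeR adjusted p 1.1e-06) and 0.54 (0.0024). DAP3, a GTP-binding protein of the small subunit, was higher in SLC17A6 cells at 0.68 (0.00045) and lower in GLUL/AQP8 cells at -0.48 (0.0026). The 26.3% of all genes that were higher in BEGAIN/LHX1-SALL3 cells is the background for the counts that follow. Of 8 translation factors tested, 4 were higher and 0 lower there, among them the initiation factor MTIF2 (0.57) and MTFMT (0.72), which formylates the initiator tRNA. The initiation factor MTIF3 was higher in GLUL/AQP8 (1.03) and SLC17A6 cells (0.64) and lower in SLC32A1 (-1) and GAD1 cells (-0.61). Of 16 assembly factors 5 were higher and 2 lower in BEGAIN/LHX1-SALL3 cells, the higher share being near that background. MALSU1, which binds the maturing large subunit, was highest at 1.66, and MRM1, a methyltransferase of its RNA, was lower at -0.56. Of 15 mitochondrial tRNA synthetases 3 were higher and 2 lower there, again near it for the higher ones. Of 4 genes of mitochondrial transcription and RNA, 0 were higher and 1 lower in BEGAIN/LHX1-SALL3 cells (26.3% and 26% of all genes). In GLUL/AQP8 cells 0 of these 4 were higher and 3 lower (27.5% and 24.2%), and in SLC17A6 cells 2 were higher and 1 lower (19.5% and 17.6%). LRPPRC, which stabilises mitochondrial messenger RNAs, and TFAM, which packages and transcribes the mitochondrial genome, were higher in SLC17A6 cells at 0.67 and 0.38, and the RNA polymerase POLRMT was lower at -0.39 there and higher at 0.34 in SLC32A1 cells. Of 2 regulators tested, NRF1, a transcription factor of nuclear genes for mitochondrial proteins, was lower in BEGAIN/LHX1-SALL3 (-0.37, adjusted p 0.005) and GLUL/AQP8 cells (-0.50, 0.00045) and higher in CHAT/SLC5A7 (0.42, 0.00096) and SLC17A6 cells (0.31, 0.012).

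The messenger RNAs of the mitochondrial genome, the templates of this ribosome, gave counts for 10 tested genes. In GLUL/AQP8 cells 0 were higher and 10 lower (27.5% and 24.2% of all genes). In BEGAIN/LHX1-SALL3 cells 5 were higher and 1 lower (26.3% and 26%), and in SLC17A6 cells 8 were higher and 0 lower (19.5% and 17.6%). Their summed level was 1003 to 2206 CPM in replicate 1 and 1976 to 4663 CPM in replicate 2. This list was added after the data had been seen. For the lists with 0 calls in a direction given here, 0 genes passed in that direction with DESeq2 or at an unadjusted p under 0.05 in edgeR.

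Some genes depended on the library. MRPS6 had 101 UMIs in the classes of replicate 1 and 6 in those of replicate 2. MRPS35 was higher in replicate 2 in 6 of 6 classes, at 34.4 to 51.9 CPM against 20.7 to 32.1 CPM in replicate 1. MRPL58, whose human protein also acts as a peptidyl-tRNA hydrolase, was likewise higher in replicate 2 in 6 of 6 classes, at 21.5 to 38.3 CPM against 15.0 to 18.6 CPM in replicate 1. The name table of a later genome assembly held 46 of the 52 genes, and in it 14 overlap another gene, MRPL47 with NDUFB5 and MRPL38 with FBF1 among them. Whether the counting used strand is not given in the sources used here, so the values of these 14 may include reads of the overlapping gene. In that assembly MRPS11 and MRPL46 are neighbours, the only adjacent pair among the 46.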

How the data were processed

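The authors counted UMIs per gene and cell barcode with Cell Ranger against a retina-specific extension of the NCBI genome annotation and deposited those raw counts for barcodes called as cells; the labels name version 6.0.1 and the matrix headers 7.0.1. Labels and methods also differ on the kit version, and the cell sorting named in the labels is not described in the methods. Barcodes with under 500 UMIs or genes outside 330 to 8950 were removed, following the methods (30 in replicate 1 and 22 in replicate 2, leaving 12903 and 15936). The study's own atlas holds fewer cells after further clustering. No doublet caller was run beyond that upper limit, and cells past several gates (12.9% and 15.5%) took the first in the order GLUL/AQP8, BEGAIN/LHX1-SALL3, CHAT/SLC5A7, SLC32A1, GAD1, SLC17A6. In all, 8273 cells entered no class.

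Median depth ran from 6373 to 18885 UMIs per cell over the 12 sums, and CPM are UMIs per 1000000 of a sum. UMIs were summed per class and library and fitted with edgeR 4.0.16 (TMM, filterByExpr, quasi-likelihood test, Benjamini-Hochberg over 15621 genes) with class and library as terms, each class against the mean of the other 5. The library term is a replicate block, since sums with the same replicate number come from 1 cell suspension. The libraries are labelled as replicates 1 and 2. The block takes out the overall difference between these 2 libraries. The p-values then measure the spread that is left, by which class differences vary between them, on 5 residual degrees of freedom. The fit was tested on simulated data.

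DESeq2 1.42.0, no gene filter, no block, thinning, other gates, other depths and other scalings were tried. The genes and lists were chosen with earlier results of these data known. Named genes were, in each class, the up to 3 called genes of highest and of lowest fold change, those with the most and the fewest UMIs, those that varied least, and those at the barcode limit. Gene names came from the files, the study's name table and RefSeq. Bacterial counterparts and roles are those of the human proteins.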

Additional observations from a re-analysis of the deposited data

How the results depend on the processing

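The 28 differences of named genes were recomputed under 12 settings with a test and with each library left out. The most depended on cell depth. Percentages in brackets are shares of all genes called in the same setting, class and direction. Cells of 4000 to 16000 UMIs were set apart after seeing the data. There the genes higher and lower numbered 2 and 11 in BEGAIN/LHX1-SALL3 (13.6% and 15.3%), 19 and 4 in GLUL/AQP8 (24.5% and 19.3%) and 1 and 1 in GAD1 cells (14.1% and 7.24%). The lower ones numbered 1 in CHAT/SLC5A7 (13.7%), 2 in SLC32A1 (11.3%) and 0 in SLC17A6 cells (15%). MRPL42 (-0.45) and MRPL32 (-0.24) changed sign in BEGAIN/LHX1-SALL3 cells. In cells of at least 20000 UMIs (also added) the genes higher and lower numbered 4 and 7 in GLUL/AQP8 cells (20.8% and 15.7%). There 0 were higher in CHAT/SLC5A7 (14%) and SLC32A1 cells (13.5%). In the other direction 0 were lower in BEGAIN/LHX1-SALL3 (25.2%) and GAD1 cells (3.8%) and 1 in SLC17A6 cells (18.6%). At an unadjusted p under 0.05 in edgeR, 9 were lower in GAD1 cells and 0 in BEGAIN/LHX1-SALL3 cells, counts not made over all genes. MRPL14 in BEGAIN/LHX1-SALL3 cells (0.0072) and MRPL47 in CHAT/SLC5A7 cells (-0.0504) changed sign. With cells thinned to 1000 UMIs, which leaves fewer UMIs, those higher were 4 in BEGAIN/LHX1-SALL3 (10.2%), 0 in CHAT/SLC5A7 (15.2%), 1 in GAD1 (14.1%), 2 in SLC17A6 (11.1%) and 0 in SLC32A1 cells (16.2%). Those lower, in the same order, were 0 (10.2%), 2 (11.1%), 5 (8.77%), 0 (7.54%) and 4 (12%), with 1 in GLUL/AQP8 cells (13.7%). MRPS10 changed sign in SLC17A6 cells (-0.0894). The cause of these changes was not tested.

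With BEGAIN/LHX1-SALL3 cells left out of the fit, the higher genes were 20 in GLUL/AQP8 (29.6%), 21 in SLC17A6 (19.5%) and 0 in SLC32A1 cells (18.4%). The lower ones were 9 in CHAT/SLC5A7 (20.3%), 11 in GAD1 (14.6%), 1 in SLC17A6 (21%) and 15 in SLC32A1 cells (19.7%). Without the replicate block, 0 were higher in CHAT/SLC5A7 (15.3%) and SLC32A1 cells (13.5%), while 35 were higher in BEGAIN/LHX1-SALL3 cells (22.8%). Lower were 0 in BEGAIN/LHX1-SALL3 (22.6%), 11 in CHAT/SLC5A7 (13.8%), 11 in GAD1 (8.21%), 7 in GLUL/AQP8 (17%) and 1 in SLC17A6 cells (13.3%). Of the named differences 21 of 28 kept their call without the block. Cells of more than 1 gate left out gave 1 higher in CHAT/SLC5A7 (15.2%), 1 in GAD1 (21%), 6 in SLC17A6 (20.3%) and 0 in SLC32A1 cells (23.3%). They gave 0 lower in BEGAIN/LHX1-SALL3 (20.8%) and 16 in SLC32A1 cells (17.8%). A gate of 1 UMI gave 3 higher in GLUL/AQP8 (16.8%) and 0 in SLC32A1 cells (17.4%) and 0 lower in BEGAIN/LHX1-SALL3 cells (24.1%). A gate of 3 UMIs gave 2 higher in CHAT/SLC5A7 (20.8%) and 2 lower in BEGAIN/LHX1-SALL3 cells (26.5%). Scaling by library size alone (added after seeing the data) moved the median of all genes by -0.15 in BEGAIN/LHX1-SALL3, 0.15 in SLC32A1 and 0.11 in GAD1 cells. It gave 2 higher in CHAT/SLC5A7 (17.8%), 2 in GAD1 (22.9%) and 6 in SLC32A1 cells (31.6%). Lower were 3 in BEGAIN/LHX1-SALL3 (32.1%), 14 in GAD1 (12.3%) and 15 in SLC32A1 cells (15.7%). DESeq2 gave 3 higher in CHAT/SLC5A7 (19.1%) and 0 in SLC32A1 cells (18.5%). No gene filter gave 3 higher in CHAT/SLC5A7 (15.2%) and 2 lower in BEGAIN/LHX1-SALL3 cells (20%). With 1 library left, classes have no replicates and counts of calls could not be had. The named differences kept their direction in either library alone. Of the 28, MRPL41 in CHAT/SLC5A7 cells without replicate 1 (-0.56, against -0.58 with both) and MRPS10 in GAD1 cells without replicate 2 (-0.64, against -0.67) moved by more than the spread between replicates.

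With 2 libraries, the spread rests on 5 residual degrees of freedom, and MRPS6 gave 107 UMIs, so its values carry the largest errors of the 52.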

Other observations

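The cells in no class (4255 in replicate 1 and 4018 in replicate 2, with medians of 957 and 1906.5 UMIs) had 1677 and 1576 CPM of the 52 genes, within the range of the class sums outside BEGAIN/LHX1-SALL3 cells. A cell of median depth held UMIs of few of the 52 genes: the median number of them detected per cell was 12 and 24 in BEGAIN/LHX1-SALL3 cells, 20 and 18 in GLUL/AQP8 cells, 14 in both libraries of SLC17A6 cells, 13 and 12.5 in CHAT/SLC5A7 cells and 9 in both libraries of SLC32A1 and GAD1 cells. These numbers follow depth as well as level and are given without comparison.

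MRPL48 and MRPL38 were lower in replicate 2 than in replicate 1 in 6 of 6 classes, with ratios of 0.727 and 0.797 over all classes, whereas MRPL13 and MRPL32 were higher in replicate 2 in 6 of 6, with ratios of 1.34 and 1.35. MRPL36 lies next to NDUFS6, a gene of complex I, in the later assembly.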
